A study of Homo sapiens with 6 samples.

Results

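Clade B serpins are intracellular protease inhibitors, described here in NCI-H292, an established human lung mucoepidermoid carcinoma line. The 10 genes (SERPINB1 to SERPINB9 and SERPINB13) were taken by gene name from a table of 60027 gene IDs, and each name stood on a single row. They were chosen from a family whose TPM values and differences between the groups were already known, so the differences and calls given for them are a description of these libraries and support nothing. TPM is a transcript's share of all transcripts in a library, corrected for gene length. There were 3 libraries labelled SH3PXD2A-AS1 knockdown and 3 labelled negative control, which the series text also calls vector control. All came from the same cell line, and the labels give no other treatment, clone, reagent or culture time. The labels do not say if replicates are separate cultures, so each p-value covers only library-to-library spread, possibly of technical origin.

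Serpins are suicide inhibitors of proteases: the enzyme cuts an exposed loop of the serpin and is trapped as the fold collapses. Clade B members lack a classical secretion signal and mostly act inside cells, where they restrain granule, lysosomal and other proteases. In stratified epithelia and in squamous tumours several of them are well known products, among them SERPINB3 and SERPINB4, the squamous cell carcinoma antigens, and SERPINB5, known as maspin. Their genes lie in clusters on chromosomes 18 and 6.

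The targeted RNA, SH3PXD2A-AS1, was low in all libraries. Its level was 0.96, 0.75 and 0.51 TPM in the control libraries and 0.37, 0.68 and 0.44 TPM in the knockdown libraries, and the groups overlapped (exact two-sided permutation test on the mean, p = 0.2, where 0.1 is the smallest this design allows). Group names below are therefore those of the labels. Depth cannot be read from TPM and is unknown. Between 15432 and 15883 genes reached 1 TPM in each library. Of 6 epithelial markers 4 rose and none fell, beside 11.3% and 3.47% of all genes tested. Their summed level was 3221 to 3320 TPM in control libraries and 3602 to 3690 TPM with knockdown. The leukocyte markers PTPRC and MPO were listed at 0 in all 6 libraries. CD3E, a T cell marker, reached at most 0.07 TPM. CD68, the 1 of 5 leukocyte markers tested, encodes a lysosomal glycoprotein; it rose and stood at 36.6 to 42.2 TPM in control libraries and 56.1 to 60.3 TPM with knockdown. Among fibroblast markers COL1A1 stood at 19.6 to 25.9 TPM and DCN at no more than 0.20 TPM, and among endothelial markers CDH5 stood at 1.05 to 1.76 TPM and PECAM1 at no more than 0.07 TPM. The part of these markers in the results was not tested. In bulk RNA, fewer cells with a transcript and less of it per cell cannot be told apart.

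The promoters of the genes that moved most are printed first, from RefSeq on GRCh38.p14, each from 250 bases before the RefSeq start to 50 after it. RefSeq starts can differ from the GENCODE 29 gene positions given further below. The SERPINB2 and SERPINB13 windows lie inside their GENCODE spans, 63871692 to 63903890 and 63586989 to 63604639. SERPINB3 (chr18:63661844-63662143, minus strand) and SERPINB4 (chr18:63644207-63644506, minus strand) are near copies, and capitals mark the 4 of 300 bases at which their windows differ.
SERPINB3: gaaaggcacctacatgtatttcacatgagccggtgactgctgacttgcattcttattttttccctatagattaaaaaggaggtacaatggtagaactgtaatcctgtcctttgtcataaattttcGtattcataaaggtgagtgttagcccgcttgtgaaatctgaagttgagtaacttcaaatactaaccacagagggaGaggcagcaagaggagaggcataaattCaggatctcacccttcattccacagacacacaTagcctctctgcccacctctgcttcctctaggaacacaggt
SERPINB4: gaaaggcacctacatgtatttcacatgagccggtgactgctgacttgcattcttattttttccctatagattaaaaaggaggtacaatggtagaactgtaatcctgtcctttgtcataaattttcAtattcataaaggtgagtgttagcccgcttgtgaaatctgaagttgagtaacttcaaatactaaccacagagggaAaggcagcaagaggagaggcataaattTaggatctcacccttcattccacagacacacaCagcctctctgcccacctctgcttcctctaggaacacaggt
In SERPINB13 (chr18:63587093-63587392, plus strand) and SERPINB2 (chr18:63887455-63887754, plus strand) capitals mark an AP-1 motif (TGANTCA) and a TATA motif (TATAAA).
SERPINB13: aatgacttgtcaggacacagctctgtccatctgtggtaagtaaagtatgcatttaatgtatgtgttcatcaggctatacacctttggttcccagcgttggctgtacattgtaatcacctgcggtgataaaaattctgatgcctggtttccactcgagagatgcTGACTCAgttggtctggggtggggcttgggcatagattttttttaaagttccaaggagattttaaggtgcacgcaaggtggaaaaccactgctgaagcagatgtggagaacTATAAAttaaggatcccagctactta
SERPINB2: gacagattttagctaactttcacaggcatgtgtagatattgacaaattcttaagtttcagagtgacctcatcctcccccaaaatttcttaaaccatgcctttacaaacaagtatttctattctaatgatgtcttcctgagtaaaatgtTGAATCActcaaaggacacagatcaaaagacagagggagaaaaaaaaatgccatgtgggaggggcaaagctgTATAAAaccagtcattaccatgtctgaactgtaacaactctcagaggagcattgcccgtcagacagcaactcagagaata
SERPINB2 had its TATA letters 30 to 25 bases before the RefSeq start, whereas in SERPINB13 they lay after the RefSeq start. The SERPINB3 and SERPINB4 windows held neither motif.

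SERPINB2 had the highest log2 fold change of the 10. It encodes plasminogen activator inhibitor type 2, which blocks urokinase and tissue plasminogen activator. Its level was 57.69, 52.82 and 46.07 TPM in the control libraries and 168.69, 198.86 and 172.41 TPM in the knockdown libraries. Every knockdown library was higher than every control library. The means were 52.2 ± 5.84 and 180.0 ± 16.5 TPM (SD, n = 3), a ratio of 3.45, and the log2 fold change on the log2(TPM + 1) scale was 1.77 (SE 0.10). That was the 63rd highest value of 15755 genes tested.

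SERPINB3, SERPINB4 and SERPINB13 were all lower in knockdown libraries, by similar ratios. SERPINB3, which inhibits lysosomal cysteine proteases such as cathepsins L, K and S, stood at 13.56, 16.48 and 16.63 TPM in control and at 4.25, 3.84 and 3.64 TPM in knockdown libraries. The groups were far apart, and control was 3.98 times knockdown (log2 fold change −1.75, SE 0.11, the 24th lowest of all genes tested). SERPINB4, which inhibits the serine proteases cathepsin G and chymase, stood at 2.59, 2.90 and 2.66 TPM in control and at 0.91, 0.87 and 0.72 TPM in knockdown libraries. Control was 3.26 times knockdown, with no overlap (log2 fold change −1.02, SE 0.14). SERPINB13, known as hurpin or headpin and an inhibitor of cathepsins L and K, stood at 3.92, 4.40 and 4.25 TPM in control and at 1.11, 1.14 and 1.41 TPM in knockdown libraries. Control was 3.43 times knockdown, again with no overlap (log2 fold change −1.23, SE 0.13). Adding 1 TPM before taking logs understates the change of low genes. With 0.1 TPM added the log2 fold changes were −1.96 for SERPINB3, −1.60 for SERPINB4 and −1.71 for SERPINB13. SERPINB13 and SERPINB4 ranked 88th and 130th from the bottom of the tested genes.

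SERPINB3 and SERPINB4 cannot be fully separated by sequence. Their longest open reading frames in GENCODE 29 are 95.2% identical, while the next closest pair in the family, SERPINB8 and SERPINB9, shares 72.8%. Of the 1678 stretches of 100 bases in the SERPINB3 message, 57 occur letter for letter in SERPINB4. The sources used here do not say how reads from such stretches were divided. The ratio of SERPINB3 to SERPINB4 was 5.24, 5.68 and 6.25 in control and 4.67, 4.41 and 5.06 in knockdown libraries, lower in each knockdown library than in any control library. SERPINB13 is 66.4% identical to SERPINB3 and shares no stretch of 100 bases with it. The ratio of SERPINB3 to SERPINB13 was 3.46 to 3.91 in control libraries and 2.58 to 3.83 in knockdown libraries, and these ranges overlapped.

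**Figure D1:**
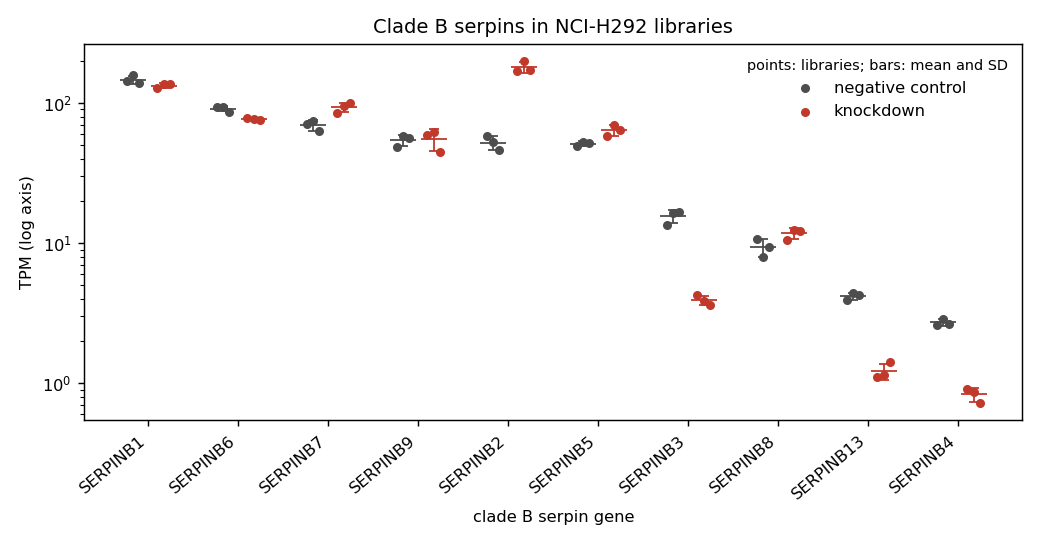
Level of each clade B serpin in every library, in TPM on a log axis, with genes ordered by their control mean; points are libraries and bars show the mean and SD of 3. The mean of SERPINB2 is 52.2 TPM without and 180.0 TPM with knockdown, and the knockdown means of SERPINB3, SERPINB13 and SERPINB4 are 3.91, 1.22 and 0.833 TPM.

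SERPINB7 and SERPINB5, also in the chromosome 18 cluster, rose by smaller amounts than SERPINB2, and SERPINB8 was not called. SERPINB7, known as megsin and active in the outer epidermis, stood at 70.59, 74.31 and 62.71 TPM in control and at 85.35, 95.00 and 99.56 TPM in knockdown libraries, without overlap (log2 fold change 0.43, SE 0.08). SERPINB5, a non-inhibitory member studied as a tumour suppressor, stood at 48.92, 52.69 and 51.81 TPM and at 58.31, 69.49 and 64.62 TPM, also without overlap (log2 fold change 0.32, SE 0.07). SERPINB8, an inhibitor of the proprotein convertase furin, stood at 10.64, 7.95 and 9.43 TPM and at 10.52, 12.44 and 12.21 TPM. The highest control library of SERPINB8 lay above the lowest knockdown library, and the gene was not called (log2 fold change 0.30, SE 0.12).

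The chromosome 6 genes moved little. SERPINB6, which inhibits cathepsin G and trypsin-like enzymes, stood at 94.07, 93.09 and 86.31 TPM in control and at 78.51, 76.90 and 75.14 TPM in knockdown libraries. Its groups did not overlap, and the log2 fold change was −0.24 (SE 0.05). SERPINB1, an inhibitor of neutrophil elastase and cathepsin G, stood at 142.83, 157.62 and 137.84 TPM and at 127.16, 136.23 and 135.51 TPM. The groups were apart by a narrow margin and the gene was not called (log2 fold change −0.13, SE 0.06). SERPINB9, the granzyme B inhibitor that protects cells from cytotoxic granules, stood at 48.79, 58.48 and 56.03 TPM and at 59.52, 62.45 and 44.39 TPM. Its 3rd knockdown library was the lowest of all 6 and the first 2 the highest, so the groups overlapped fully (log2 fold change 0.02, SE 0.14). The sign for SERPINB9 turned negative after median ratio scaling (−0.08).

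In counts, 3 members rose (SERPINB2, SERPINB5 and SERPINB7), 4 fell (SERPINB3, SERPINB4, SERPINB6 and SERPINB13) and 3 were not called, at a limma adjusted p under 0.05 over all 15755 genes tested. All 10 passed the filter of a mean of 1 TPM over all libraries. SERPINB4 passed only through its control mean of 2.72 TPM, as its knockdown mean was 0.833 TPM. Without the filter it was still called (limma adjusted p = 0.0137). Over all genes tested, 14.8% were called, 11.3% as higher and 3.47% as lower in knockdown libraries. The groups did not overlap for 8 of the 10 members, and for 36.5% of all genes. The 4 members SERPINB2, SERPINB3, SERPINB4 and SERPINB13 were called with at least a 2-fold change on the log2(TPM + 1) scale, which 1.15% of all genes reached. As the members were chosen with this contrast known, nothing is read from these shares. Their median log2 fold change was −0.06, against 0.08 for all genes. After median ratio scaling, which brought the median of all genes to −0.00197, 2 members rose and 5 fell. SERPINB5 lost its call (log2 fold change 0.23) and SERPINB1 gained one (−0.23). Over all genes, 1780 rose and 547 fell as deposited, and 1012 rose and 996 fell after that scaling. Transcripts of mitochondrial DNA made up 10.7% to 10.9% of all TPM in the control group but 7.20% to 7.40% in the knockdown group, and the part of this in the results was not tested beyond a rescaling without them and ribosomal protein genes, in which SERPINB5 (log2 fold change 0.24) was not called. With a library left out, genes called as higher over the whole table dropped from 1780 to between 867 and 1267. Without control replicate 1 or 3, or without knockdown replicate 2 or 3, SERPINB2 was the only member called as higher. SERPINB6 kept its call in 2 of the 6 fits that leave out a library, SERPINB7 in 2 and SERPINB5 in 1. Their log2 fold changes in those fits kept their direction, at −0.28 to −0.22, 0.36 to 0.49 and 0.26 to 0.38. Over all 15 alternatives SERPINB6 was called in 10, SERPINB7 in 10 and SERPINB5 in 5. The call of SERPINB5 was also lost without the filter, under quantile normalization and without the trend in the prior, and that of SERPINB6 in the last of these. SERPINB2, SERPINB3, SERPINB4 and SERPINB13 were called in all 6 fits that leave out a library.

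**Figure D2:**
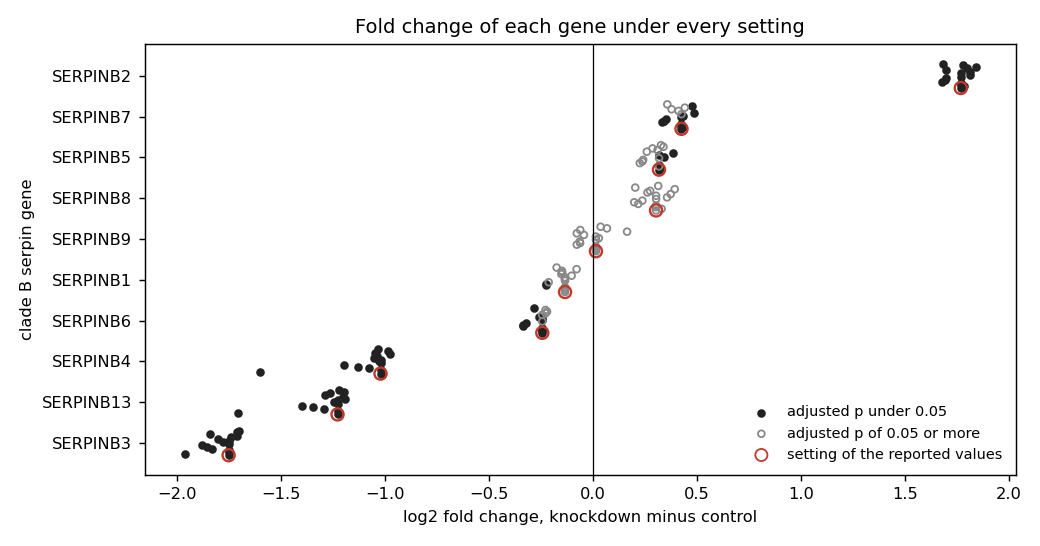
Log2 fold change of each clade B serpin, knockdown minus control, under every setting tried; filled points have an adjusted p under 0.05, open points do not, and red rings mark the reported setting. SERPINB2 stays between 1.68 and 1.84 and SERPINB3 between −1.96 and −1.70, while SERPINB9 scatters on both sides of 0.

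The order of the family changed with these shifts. In control libraries SERPINB1 was the most abundant member per length, followed by SERPINB6 and SERPINB7, each apart from the next. SERPINB9, SERPINB2 and SERPINB5 followed at means of 54.4, 52.2 and 51.1 TPM, and the libraries of each neighbouring pair overlapped. SERPINB3, SERPINB8, SERPINB13 and SERPINB4 then stood apart in that order. In knockdown libraries SERPINB2 was the most abundant member, above SERPINB1, SERPINB7 and SERPINB6 in turn, with SERPINB5 and SERPINB9 overlapping. SERPINB8 passed SERPINB3 in that order, at 11.7 against 3.91 TPM.

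The 10 members together took 474 to 521 TPM in control libraries and 594 to 657 TPM with knockdown. Without SERPINB2 the control sum averaged 444 ± 21.3 TPM and the knockdown sum 440.4 ± 16.6 TPM (SD, n = 3). SERPINB2 held 9.72% to 11.7% of the summed family TPM in control libraries and 28.3% to 30.3% with knockdown. SERPINB3, SERPINB4 and SERPINB13 held 3.14%, 0.548% and 0.845% in control and 0.632%, 0.135% and 0.197% in knockdown libraries. The ratio of SERPINB2 to SERPINB3 was 2.77 to 4.25 in control libraries and 39.7 to 51.8 in knockdown libraries.

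**Figure D3:**
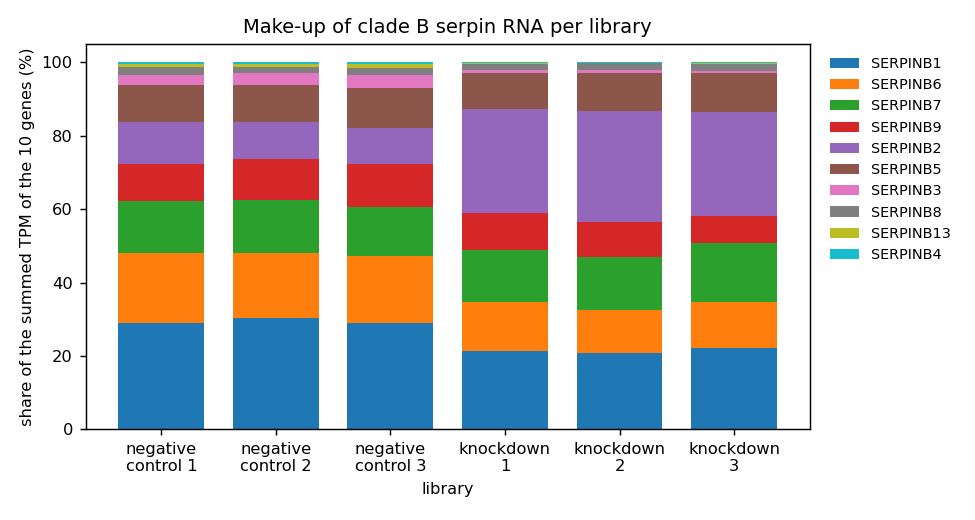
Share of the summed TPM of the 10 clade B serpins held by each gene, in percent, as 1 stacked bar per library. SERPINB2 widens from 9.72% to 11.7% in control libraries to 28.3% to 30.3% in knockdown libraries.

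The 3 members with the lowest log2 fold changes lie near each other on chromosome 18 (GENCODE 29, GRCh38), with SERPINB11 starting between SERPINB4 and SERPINB3. From the low end the cluster runs SERPINB5, SERPINB12, SERPINB13, SERPINB4, SERPINB11, SERPINB3, SERPINB7, SERPINB2, SERPINB10 and SERPINB8, by start position. The 3 members that fell at least 2-fold occupy 63586989 to 63661963, on both strands, and SERPINB11, which spans SERPINB3 on the opposite strand, was listed at 0 in all 6 libraries. SERPINB11 and SERPINB3 share 620 exon bases, so reads of the 2 genes could be confused if strand was not kept, which is not stated. SERPINB12 was listed at 0 in 5 libraries and at 0.14 TPM in control replicate 2. SERPINB7 (63752935 to 63805376, plus strand) and SERPINB2 (63871692 to 63903890, plus strand) follow. SERPINB10, which is outside the 10 and known from blood cells, stood at 0.47, 1.06 and 0.67 TPM in control and at 1.73, 1.86 and 2.76 TPM in knockdown libraries, without overlap (limma adjusted p = 0.0408). The control mean of SERPINB10 was 0.733 TPM, so it passed the filter of 1 TPM only through its knockdown mean of 2.12 TPM. Its call therefore supports nothing. The call for SERPINB10 was lost in 11 of 14 alternatives. Among them were the fit without the filter (limma adjusted p = 0.0832) and median ratio scaling (limma adjusted p = 0.0535). Its annotated exons share 547 bases with SERPINB2 on the same strand, 20.3% of its own, and the deposited table gives both genes the same length of 2155 bases. The ratio of SERPINB2 to SERPINB10 was 49.8 to 123 in control libraries and 62.5 to 107 in knockdown libraries, so the ranges overlapped. How much of the SERPINB10 level comes from SERPINB2 reads was not tested.

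**Figure D4:**
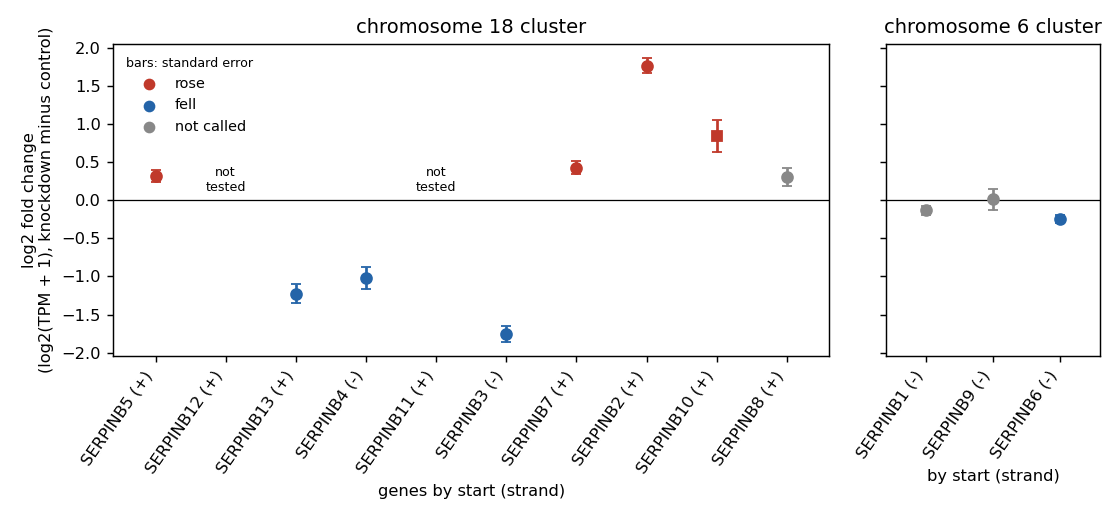
Log2 fold change, knockdown minus control, of the clade B genes in their order along the chromosome 18 and chromosome 6 clusters; bars are standard errors, circles the 10 genes, the square SERPINB10, and SERPINB12 and SERPINB11 were not tested. SERPINB13, SERPINB4 and SERPINB3 lie together below 0, at −1.23, −1.02 and −1.75.

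Of the genes beside the clusters, 1 of the 16 tested was called, beside 14.8% of all genes, and nothing particular to them is read from that count. The 9 genes listed beside the chromosome 18 cluster lie on the low side of SERPINB5, except HMSD, which starts between SERPINB10 and SERPINB8. No gene beyond SERPINB8 was listed, so that side was not examined. Of these 9 genes, 8 were tested and none was called by limma (1 at an unadjusted p under 0.05), with a median log2 fold change of 0.08. After median ratio scaling 1 fell, PIGN, a glycolipid anchor enzyme gene at 9.56 ± 0.503 and 7.98 ± 0.544 TPM. KDSR and TNFRSF11A, which encode a sphingolipid enzyme and the receptor RANK, had log2 fold changes of 0.09 (SE 0.06) and 0.39 (SE 0.17). HMSD, a serpin-domain gene that shares 370 exon bases with SERPINB8, stood at 0.48 to 1.09 TPM in control and at 1.07, 18.85 and 1.40 TPM in knockdown libraries. Only knockdown replicate 2 was high, and without it the log2 fold change of HMSD fell from 1.33 to 0.28. SERPINB8 stood at 12.44 TPM in that library, close to the 12.21 TPM of knockdown replicate 3. Of 10 genes beside the chromosome 6 cluster, 8 were tested and 1 rose, WRNIP1, a DNA repair factor, from 40.8 ± 1.29 to 47.6 ± 1.27 TPM (limma adjusted p = 0.0335, and 0.156 after median ratio scaling). TUBB2A, GMDS and SLC22A23 had log2 fold changes of 0.23, −0.24 and −0.28 and were not called; reads of TUBB2A may be shared with TUBB2B.

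Of 16 genes for proteases that clade B serpins inhibit, 9 were tested, 2 rose and none fell, with a median log2 fold change of 0.12. Over all genes tested 11.3% rose and 3.47% fell, and nothing particular to these genes is read from their counts. PLAU, which encodes urokinase, the target of SERPINB2, stood at 20.99, 19.67 and 19.72 TPM in control and at 30.80, 30.37 and 31.76 TPM in knockdown libraries, without overlap (limma log2 fold change 0.60, SE 0.06, adjusted p = 0.00136). PLAT, which encodes tissue plasminogen activator, stood at 6.42 TPM in each control library and at 5.65, 4.70 and 4.73 TPM in knockdown libraries, and was not called (limma adjusted p = 0.0836). CTSS, the cathepsin S gene, rose from 10.9 ± 1.35 to 20.1 ± 2.80 TPM (SD, n = 3; limma adjusted p = 0.00756). CTSL, the cathepsin L gene, was not called, at 133 ± 9.46 and 144 ± 7.15 TPM (limma adjusted p = 0.287). FURIN, the target of SERPINB8, was not called either, at 37.5 ± 1.91 and 43.2 ± 3.28 TPM (limma adjusted p = 0.118). GZMB, the granzyme B gene, was listed at 0 in control libraries and at no more than 0.22 TPM in knockdown libraries.

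Of 22 serpins of other clades, 7 were tested, 2 rose and 2 fell, with a median log2 fold change of −0.21. The shares over all genes tested were 11.3% higher and 3.47% lower. SERPING1, the C1 inhibitor of complement, rose from 8.13 ± 1.41 to 17.2 ± 1.59 TPM (limma adjusted p = 0.00379), and SERPINE2, protease nexin, from 8.38 ± 0.612 to 12.1 ± 1.16 TPM (limma adjusted p = 0.0199). SERPINF1, which encodes pigment epithelium-derived factor, fell from 8.14 ± 0.465 to 5.31 ± 0.930 TPM (limma adjusted p = 0.0319). The calls of SERPINE2 and SERPINF1 were lost in 6 and 7 of 15 alternatives, mostly with a library left out. Of 12 inhibitors without the serpin fold, 11 were tested, 6 rose and 1 fell, with a median of 0.35, beside the same shares of 11.3% and 3.47%. Both lists were chosen with earlier results known, so nothing is read from these counts. The secreted inhibitors SLPI and CST3 and the membrane-bound SPINT1 rose from 169 ± 2.97 to 279.9 ± 21.5 TPM, from 98.0 ± 6.82 to 161 ± 3.25 TPM and from 264 ± 17.5 to 410.1 ± 22.9 TPM (limma adjusted p = 0.000856, 0.000856 and 0.00181). CSTB, which encodes the intracellular cystatin B, rose from 104 ± 2.18 to 140 ± 3.64 TPM (limma adjusted p = 0.00177).

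Of 33 squamous differentiation genes, 18 were tested, 6 rose and 3 fell, with a median log2 fold change of 0.31. After median ratio scaling 3 rose and 3 fell. Over all genes tested, 11.3% rose and 3.47% fell as deposited, while after that scaling 1012 of 15755 rose and 996 fell. This list too was chosen with earlier results known, so nothing is read from its counts. KRT14, a basal keratin, rose from 4.30 ± 0.661 to 12.5 ± 1.45 TPM (limma adjusted p = 0.00136), though its reads may be shared with near copies. KRT17, another keratin gene with near copies, rose by a log2 value of 0.55 (SE 0.05), and PPL, which encodes the cornified envelope protein periplakin, by 0.29 (SE 0.05), a call lost after median ratio scaling. TP63, the master regulator of stratified epithelium, fell from a mean of 30.2 to 22.7 TPM (limma adjusted p = 0.0085).

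**Figure D5:**
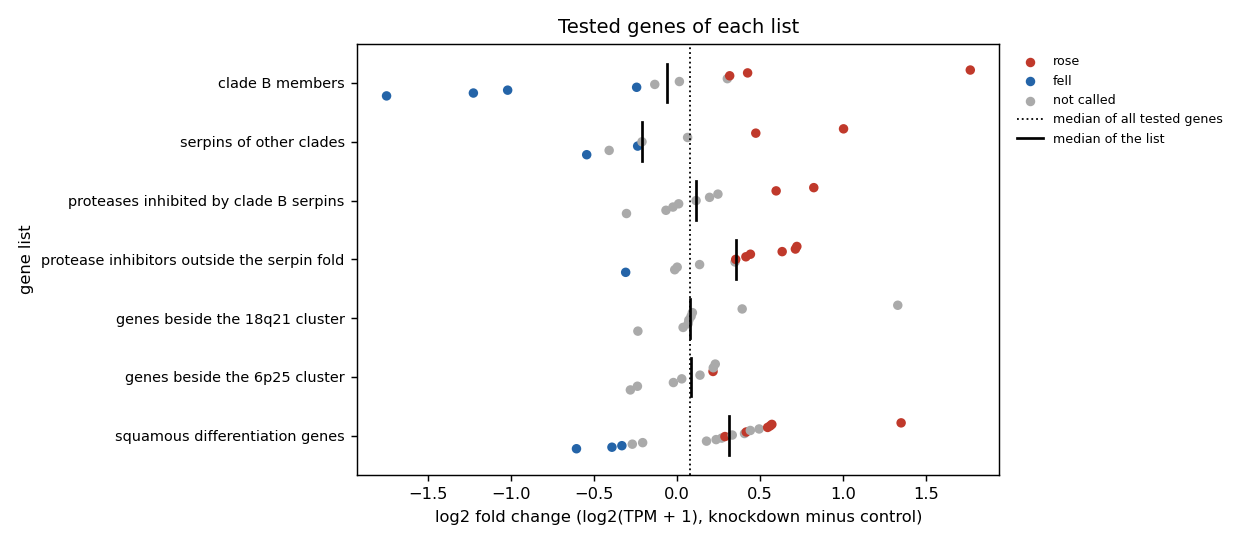
Log2 fold change, knockdown minus control, of the tested genes of each list; each point is a gene, coloured by its call, solid bars are list medians and the dotted line is the median of all tested genes, 0.08. The clade B serpins spread from −1.75 to 1.77, and the genes beside the chromosome 18 cluster have a median of 0.08.

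All 10 members had a RefSeq window, 15 in all, since SERPINB6 had several that partly overlap and SERPINB7 several alternative starts. AP-1 letters stood in 6 of the 15 windows, from 5 members (SERPINB2, SERPINB5, SERPINB7, SERPINB8 and SERPINB13), and in 7.71% of all 35116 promoter windows. TATA letters stood in 6 of the 15 and in 11.5% of all windows. The IRF core GAAANNGAA stood in 0 of the 15 and in 8.11% of all, the STAT core TTCNNNGAA in 3 and in 7.66%, and the NF-kB motif in 1, SERPINB7, and in 11.3%. Both strands were searched; matches describe letters only. The SERPINB3 and SERPINB4 windows held none of the 5 motifs. Of the 5 members with AP-1 letters, SERPINB2, SERPINB5 and SERPINB7 rose, SERPINB8 was not called and SERPINB13 fell. SERPINB3, SERPINB4 and SERPINB6, which also fell, had none. The part of these letters in the changes was not tested.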

How the data were processed

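The authors deposited 1 table with a TPM column for each of the 6 libraries, a gene length in bases and gene annotations. The submitters' processing notes list the tools fastp, HISAT and RSEM without versions or roles. The notes also give the mouse build GRCm38.p5, while 58883 of 60027 IDs are human Ensembl IDs, so the authors' build is unsettled and positions come from GENCODE 29 (GRCh38). Per the labels' protocols, RNA was poly(A)-selected and read as pairs. TPM keeps no depth, so no counting interval is given.

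Genes with a mean of at least 1 TPM were tested with limma 3.58.1 (R 4.3.3) on log2(TPM + 1), two-sided, with the prior variance fitted as a trend on the mean level, with Benjamini-Hochberg adjustment over all 15755 genes. Calls were made at an adjusted p under 0.05. The fit was first tested on simulated data. The members and lists were chosen with earlier results of these data known. Named were all members, the other clade B genes, up to 4 genes with the smallest p per list, and PLAU, PLAT, CTSL, FURIN and GZMB; 2 further genes are not reported here. Promoter windows, coding identity (Biopython 1.88) and motifs are descriptions. Of 134 list symbols, 1, an older name, was not found. Alternatives covered the added TPM, the filter, scaling, the prior, weights, a replicate block and each library left out.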

Additional observations from a re-analysis of the deposited data

How the results depend on the processing

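SERPINB2, SERPINB3, SERPINB4 and SERPINB13 kept their direction and their call under each alternative that tested them. With a mean of at least 5 TPM required, SERPINB4 and SERPINB13 were not tested, which left 2 members that fell and a member median of 0.16. Median ratio scaling gave a member median of −0.15, quantile normalization −0.14, and rescaling with mitochondrial and ribosomal protein genes taken out −0.14. SERPINB9 (0.02 as reported) turned to −0.0770, −0.0608 and −0.0625 in these 3 scalings, and KDSR (0.09) to −0.0067 in the first; the cause was not tested. Leaving out each library in turn gave 4 to 7 members called, 1 to 3 as higher and 3 to 4 as lower, a member median of −0.11 to 0.0088, a SERPINB9 value of −0.0768 to 0.16, and 13 to 20 called genes in the other lists together (23 with all libraries). SH3PXD2A-AS1 was lower by 0.133 to 0.358 TPM on average in those fits.

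Over all genes, 1136 rose and 339 fell without the filter, 1012 and 996 with median ratio scaling, 1001 and 980 with quantile normalization, 1083 and 865 with the rescaling, and 867 to 1267 and 246 to 366 with a library left out. With the replicate number as a block, 1123 rose and 343 fell. The labels do not say whether same-numbered libraries were made together. Their deviations from the group means correlated at 0.02, −0.01 and 0.04, which with 3 libraries per group cannot settle it. Under the block 2 members rose and 4 fell, as SERPINB7 (limma adjusted p = 0.0564) lost its call.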
